A study of Mus musculus with 12 samples.

Results

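Annexins are cytosolic proteins that bind membranes when calcium rises, and some of them work with small calcium-sensor proteins of the S100 family. The 10 genes described here are 8 annexins (Anxa1, Anxa2, Anxa3, Anxa4, Anxa5, Anxa6, Anxa7 and Anxa11) and the annexin partners S100a10 and S100a11. They were taken by symbol from a table of 38887 genes measured in mouse retinal ganglion cells with and without optic nerve injury. They were chosen by family, but also selected on their RPKM values and changes in these same 12 libraries, so every adjusted p below places a gene among all genes tested and is a description, not an independent test.

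Annexins share a core of repeats that binds calcium and acidic phospholipids, which lets them move to the inner face of the plasma membrane, bridge vesicles and patch membrane tears. The protein of S100a10, called p11, forms a dimer that ties 2 molecules of annexin A2 together, and this heterotetramer links membranes to actin and carries channels and receptors to the cell surface. The protein of S100a11 binds annexin A1 and annexin A2 in a similar way. In neurons, annexins and p11 are known for roles in membrane traffic, in repair of injured membrane and in placing serotonin receptors.

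The cells were of 2 fluorescent classes, each examined 3 days after optic nerve crush or sham surgery. Opn4 cells came from Opn4CreERT/+;R26-tdTomatof/f mice, in which Cre made from the Opn4 locus and activated by tamoxifen turns on the red protein tdTomato in melanopsin-expressing, intrinsically photosensitive ganglion cells. The other line, HB9:GFP, gave the HB9 cells: a transgene with HB9 (Mnx1) control sequences drives green fluorescence there in a type of ON-OFF direction-selective ganglion cell. Mice of both lines received tamoxifen at 0.124 mg per g of body weight for 5 days from postnatal day 21, and surgery was at postnatal day 42. The 12 libraries fell into 4 groups of 3 (Opn4 sham, Opn4 crush, HB9 sham and HB9 crush). Each library held 3 pools of 10 cells picked singly by pipette, with 10 cells taken per animal, so a replicate is a pool over animals and the SD is a spread between pools. Line, reporter and Cre differ along with the cell class and cannot be told apart from it. In pooled RNA, fewer cells with a transcript and less transcript per cell cannot be told apart either.

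RPKM, reads scaled for gene length and for the total of the library, had been computed by the authors with totals of 15104446 to 28195798 reads, and 15021 to 16514 genes stood at 1 RPKM or more in a library. By their sums, markers matched the labels. The 6 ipRGC markers summed to 1813 to 3125 RPKM in Opn4 libraries and to 3.33 to 34.3 in HB9 libraries. The 6 markers of direction-selective cells summed to 117 to 183 and 1475 to 6522, mostly from Cartpt. Of the others, Col25a1, Cdh6 and Mnx1 did not overlap between classes, while Fstl4 and Mmp17 did. Mnx1 stood at 20.9 to 41.7 RPKM in HB9 sham, 1.13 to 3.06 in HB9 crush and 0.144 at most in Opn4 libraries. HB9 crush replicate 1 had the lowest HB9 sum because of Cartpt (1364 RPKM against 4731 to 6395 in the other HB9 libraries). Rod transcripts were present throughout, with 13 rod markers summing to 763 to 3224 RPKM in Opn4 libraries and 297 to 979 in HB9 libraries. Opn4 crush replicate 1 had the highest rod sum and stood apart in genes of Muller glia, with Apoe at 73.0, Rlbp1 at 86.6 and Slc1a3 at 14.7 RPKM against at most 6.18, 31.5 and 0.845 elsewhere.

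Across the 12 libraries the 10 genes covered a range from absent to highly expressed. By mean RPKM, Anxa5 ranked 192 of 38887 listed genes, Anxa6 368, S100a10 543, Anxa7 2404, Anxa2 3914, Anxa11 7167, Anxa3 7753, S100a11 12228, Anxa4 17705 and Anxa1 19725. Anxa5 and Anxa6 together made up 78.0% to 94.4% of the summed annexin RPKM of every library. This sum was 988 ± 120 RPKM (SD, n = 3) in Opn4 sham, 1061 ± 127 in Opn4 crush, 1203 ± 94.0 in HB9 sham and 1598 ± 70.4 in HB9 crush. Opn4 and HB9 cells had the same pair of abundant annexins, and the genes that separated the groups most were those at lower or middle levels.

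**Figure D1:**
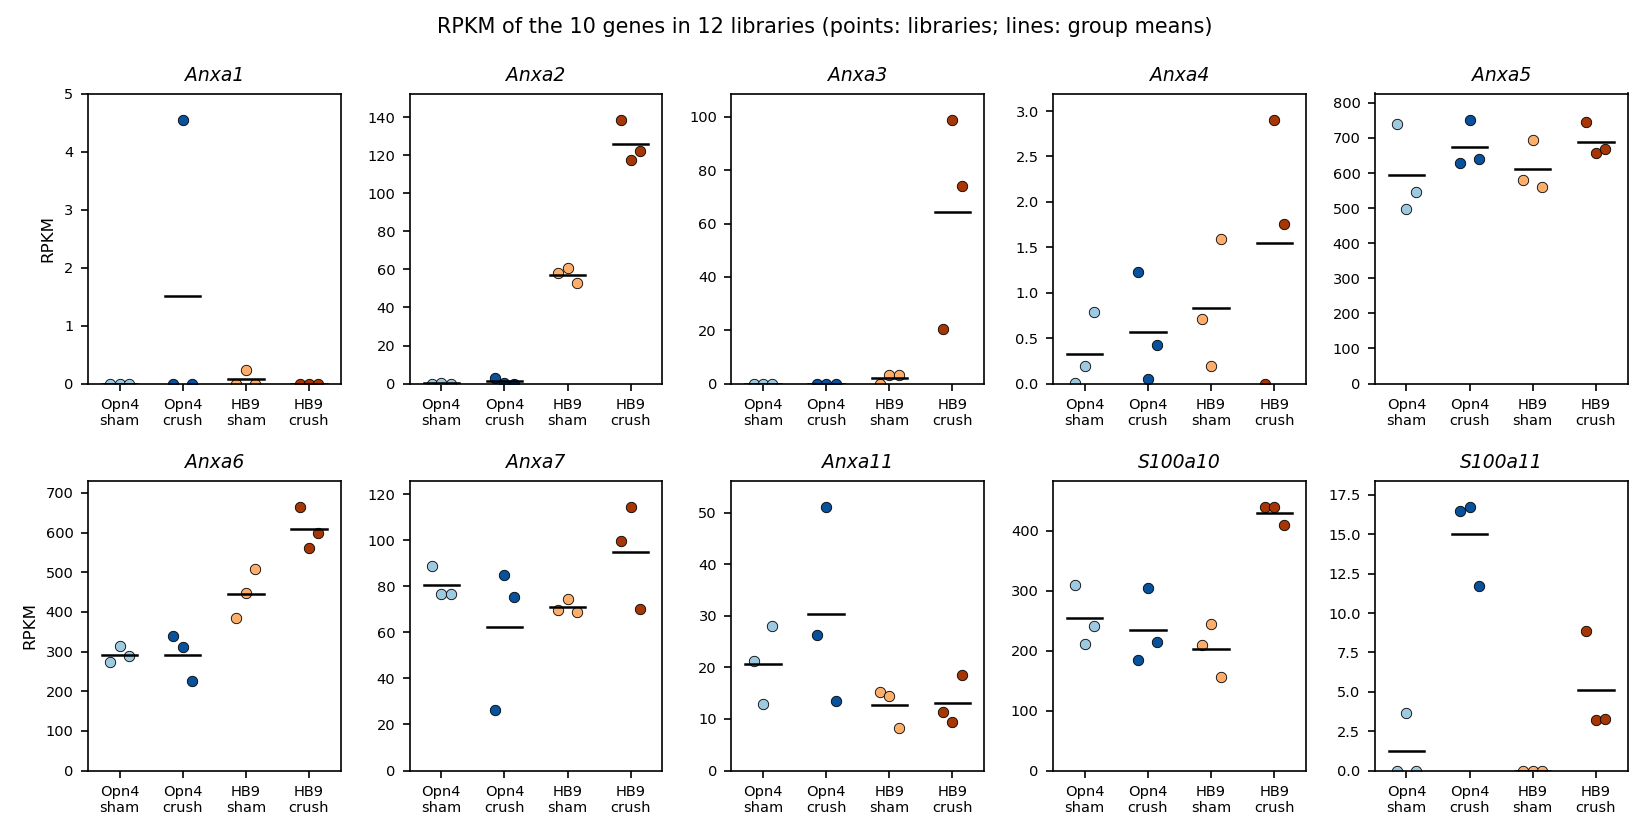
RPKM (vertical axes, linear from 0, a scale for each gene) of the 10 genes in the 4 groups; points are libraries and lines are means of 3. Anxa2 lies near 0 in the 6 Opn4 libraries and between 53.1 and 139 in the 6 HB9 libraries, S100a10 is highest in the 3 HB9 crush libraries, and Anxa5 is at a like level in the 4 groups.

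S100a10 and S100a11 are neighbours on chromosome 3 (mm10), both on the plus strand, at chr3:93555080-93564643 and chr3:93520488-93526287. They lie 28792 bases apart with 0 listed genes between them. Anxa2 is on the plus strand of chr9:69453620-69491795 and Anxa3 on the plus strand of chr5:96793385-96845968, and the other members are on chromosomes 3, 6, 11, 14 and 19. All 10 are listed as protein-coding. RefSeq promoter windows (GRCm38.p6, from 250 bases before to 50 after the start site) were found for 7 of the 10 genes, not for Anxa3, Anxa6 and S100a10.

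The windows were searched on both strands for the AP-1 motif TGANTCA, the site of Jun and Fos factors, which are well-known injury-response regulators in neurons. It occurred once for Anxa2, starting 95 bases before the start site, and at 2 places for S100a11, 136 and 38 bases before it, and it was not found for Anxa1, Anxa4, Anxa5, Anxa7 and Anxa11. Of all 32851 windows, 7.81% held it. The stretches upstream of every listed start are shown for these 2 genes and for Anxa5, with the motif in capitals. Anxa5 was picked for its steady RPKM, so the choice of genes shown carries no weight. Whether the motif goes with a change after crush was not tested.
Anxa2 (chr9:69453433-69453619, plus strand): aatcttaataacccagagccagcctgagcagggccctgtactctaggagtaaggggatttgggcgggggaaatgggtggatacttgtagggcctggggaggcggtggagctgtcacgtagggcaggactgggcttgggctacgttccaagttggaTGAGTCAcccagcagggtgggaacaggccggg
S100a11 (chr3:93520246-93520487, plus strand): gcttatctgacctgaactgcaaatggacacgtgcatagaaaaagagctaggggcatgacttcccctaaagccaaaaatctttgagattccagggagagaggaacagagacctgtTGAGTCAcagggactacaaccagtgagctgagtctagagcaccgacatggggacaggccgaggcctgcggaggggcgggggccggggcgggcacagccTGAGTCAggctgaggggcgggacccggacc
Anxa5 (chr3:36475895-36476137, minus strand): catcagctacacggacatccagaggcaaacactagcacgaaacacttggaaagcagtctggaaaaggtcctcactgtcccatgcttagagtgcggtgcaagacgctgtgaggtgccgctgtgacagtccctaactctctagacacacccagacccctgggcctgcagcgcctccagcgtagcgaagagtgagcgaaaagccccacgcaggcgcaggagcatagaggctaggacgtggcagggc
In the full windows the TATA box letters TATAAA were found for Anxa1 and Anxa2 (13.6% of all windows) and the cyclic AMP response element TGACGTCA for none of the 7 genes (1.79% of all windows). A match is a description of these letters and no measure of binding.

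Tests were made on log2(RPKM + 1) with limma over 18269 genes that reached 1 RPKM in at least 3 libraries, and a gene is said to have changed where its Benjamini-Hochberg adjusted p over all these genes was under 0.05. Of the 10 members, 9 entered; Anxa1 did not. Anxa2, Anxa3 and S100a11 entered through the groups in which they are high, so their differences are bound up with their entry. After crush in HB9 cells 3 members were higher (Anxa3, S100a10 and S100a11) and 0 lower, against 3.84% of all genes tested that were higher. In Opn4 cells 1 member was higher (S100a11) and 0 lower, against 0.69% of all genes higher. Over the 9 members the median log2 change was 0.45 in HB9 cells and 0.20 in Opn4 cells, beside 0.11 and -0.02 over all genes. The median over all genes in HB9 cells moved to -0.07 when library medians were set equal, and the all-gene calls there moved from 702 higher and 470 lower to 529 and 787. Changes of members in HB9 cells are to be read relative to this shift of 0.11.

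**Figure D2:**
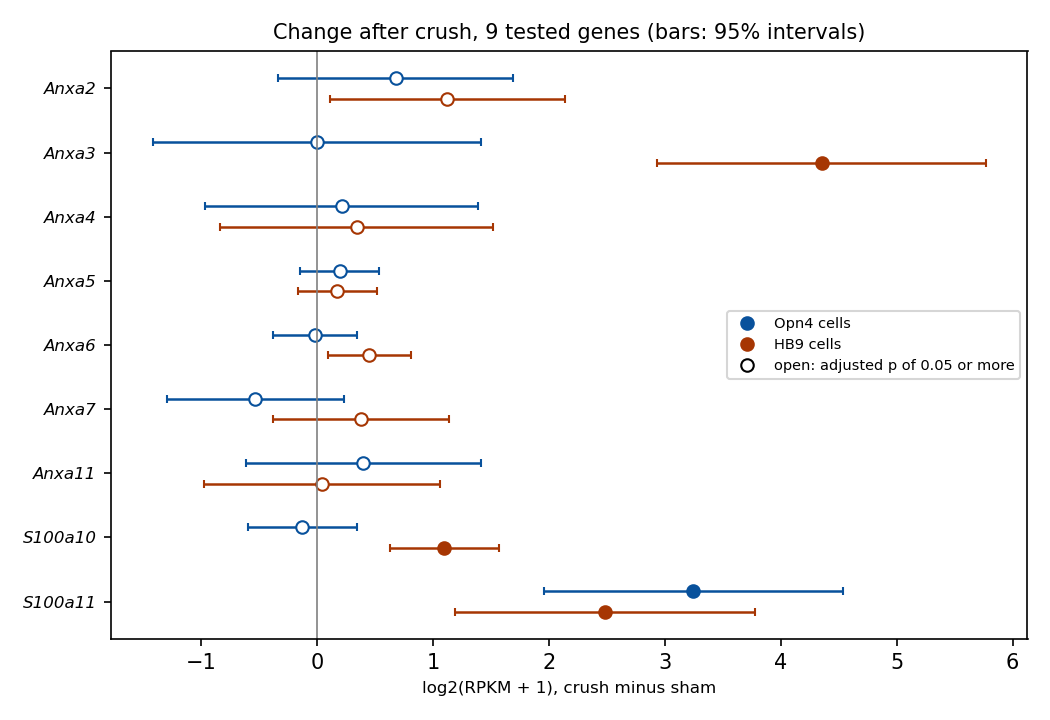
Log2 change of RPKM + 1 after crush (horizontal axis) for the 9 tested genes in Opn4 and HB9 cells; points are limma estimates, bars are 95% intervals, and filled points have an adjusted p under 0.05. Anxa3 in HB9 cells (4.35) and S100a11 in both classes (3.25 and 2.48) lie farthest to the right.

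Anxa2, the heavy chain of the annexin A2 and p11 complex, marked the HB9 class. Its RPKM in HB9 cells was 58.3, 60.6 and 53.1 after sham and 139, 117 and 123 after crush. In Opn4 cells it was 0, 0.142 and 0 after sham and 3.08, 0.148 and 0 after crush. The 6 HB9 libraries lay far above the 6 Opn4 libraries with no overlap, and the Opn4 library at 3.08 was replicate 1, the one with Muller glia genes. The log2 difference between classes (Opn4 minus HB9) was -5.80 ± 0.47 after sham (SE, limma, adjusted p = 7.66e-06) and -6.25 ± 0.47 after crush (adjusted p = 5.85e-06). These values are damped by the pseudocount, since the mean RPKM after sham was 0.0473 in Opn4 cells, from 8 reads over 3 libraries, and 57.3 in HB9 cells.

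Within HB9 cells, Anxa2 stood at 126 ± 11.1 RPKM after crush and 57.3 ± 3.83 after sham (SD, n = 3), and the 2 groups did not overlap. The log2 difference was 1.12 ± 0.47, with an adjusted p of 0.206 in the fit of all 12 libraries. The adjusted p was 0.00383 when only the HB9 libraries were fitted, 0.0363 without Opn4 crush replicate 1, 0.0245 with library weights and 0.0340 with voom on recovered reads. In the other 19 of 23 alternatives the limma fit did not pass. Its adjusted p was 0.646 with a pseudocount of 0.1, 0.434 without HB9 crush replicate 1, 0.353 with a rod covariate and 0.319 with library medians set equal. In Opn4 cells the log2 difference after crush was 0.68 ± 0.47 (adjusted p = 0.553), and 0.04 without replicate 1 of Opn4 crush. Reads of the antisense gene Gm16144, which overlaps Anxa2, stood at 0.52 RPKM at most.

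S100a10, the light chain p11, was abundant in both classes, also where Anxa2 was near 0. Its RPKM in Opn4 cells was 310, 211 and 241 after sham and 185, 305 and 214 after crush. In HB9 cells it was 210, 245 and 155 after sham and 440, 439 and 410 after crush. The 3 HB9 crush libraries lay above the other 9, which overlapped one another. S100a10 rose in HB9 cells after crush, from 203 ± 45.2 to 430 ± 17.4 RPKM (log2 change 1.10 ± 0.22, limma, adjusted p = 0.00823), and this call held in all 23 alternatives (adjusted p 0.000732 to 0.0454). With library medians set equal the change was 0.92.

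In Opn4 cells the log2 change of S100a10 was -0.13 ± 0.22 (95% interval -0.60 to 0.34, adjusted p = 0.835). The difference between the 2 crush effects (Opn4 minus HB9) was -1.23 ± 0.31, with an adjusted p of 0.0958 over all genes, and 0.0433 without Opn4 crush replicate 2. In the other 21 of 22 alternatives this difference stayed outside the threshold, with an adjusted p of up to 0.211. Between classes, S100a10 did not pass after sham (0.33 ± 0.22, adjusted p = 0.395), while after crush it was lower in Opn4 cells by the limma fit (-0.90 ± 0.22, adjusted p = 0.0163). The latter call was lost without Opn4 crush replicate 1 (adjusted p = 0.0579), without HB9 crush replicate 1 (0.0596), without HB9 crush replicate 2 (0.0523) and with a rod covariate (0.0726).

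The ratio of light chain to heavy chain in HB9 cells, from RPKM that are scaled for length, was 3.60, 4.04 and 2.92 after sham and 3.17, 3.74 and 3.34 after crush. The 2 groups overlapped, with means of 3.52 ± 0.565 and 3.42 ± 0.292 (SD, n = 3). In Opn4 cells S100a10 stood at 254 ± 50.7 RPKM after sham beside 0.0473 for Anxa2, so no ratio is given there. A search for genes with the most similar profile over the 12 libraries (smallest root mean square difference of centred log2 values, 18268 genes compared) placed Psmc2, Ube2w, Gm6863, Snx32 and Gm13453 nearest to S100a10, at 0.158 to 0.201. For Anxa2 the nearest were Gm15825, Pou4f3, Sema3e, Pnlip and Gabra4, at 0.864 to 1.01, all close to 0 in Opn4 cells. Anxa2 ranked 18239 in the list of S100a10, and S100a10 ranked 5353 in the list of Anxa2, at the same difference of 2.94. The values were centred but not scaled, so the class difference of Anxa2 weighs heavily in both ranks. They are no separate measure of how alike the 2 genes are.

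S100a11, which codes for the other S100 protein that pairs with annexins, was the single member that rose after crush in both classes. Its RPKM in Opn4 cells was 0, 3.63 and 0 after sham and 16.5, 16.7 and 11.7 after crush. In HB9 cells it was 0, 0 and 0 after sham and 8.84, 3.19 and 3.25 after crush. All 6 crush libraries had reads of it, 44 to 155 each, and in Opn4 cells the groups did not overlap, though sham replicate 2 had 28 reads. The log2 change was 3.25 ± 0.60 in Opn4 cells (limma, adjusted p = 0.0209) and 2.48 ± 0.60 in HB9 cells (adjusted p = 0.0259). Against a floor of 3 reads over the HB9 sham group, which was at 0 in its 3 libraries, HB9 crush was at least 55.9-fold higher, a bound for counting error alone.

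Both calls of S100a11 were fragile. In Opn4 cells the adjusted p was 0.0670 without sham replicate 1, 0.0773 without sham replicate 3 and 0.272 when the Opn4 libraries were fitted alone, and it missed the threshold in 7 of 23 alternatives. In HB9 cells leaving out any of the 6 HB9 libraries ended the call (adjusted p 0.0519 to 0.119, the highest without crush replicate 1), and 8 of 23 alternatives did. Without Opn4 crush replicate 1, the library with Muller glia genes, the change of S100a11 in Opn4 cells was 3.17 ± 0.68 (adjusted p = 0.04997). The difference between the 2 crush effects was 0.76 ± 0.84 (95% interval -1.06 to 2.59). Between classes after crush, S100a11 was at 15.0 ± 2.81 RPKM in Opn4 and 5.09 ± 3.24 in HB9 cells with no overlap. It did not pass (1.498 ± 0.60, limma, adjusted p = 0.126). Without Opn4 sham replicate 2 the adjusted p was 0.0454, and in the other 22 of 23 alternatives it stayed outside the threshold, at up to 0.465. After sham the class difference was 0.74 ± 0.60 (adjusted p = 0.499) and rested on Opn4 sham replicate 2.

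Anxa3, an annexin known as a phospholipase inhibitor and from angiogenesis, was detected in HB9 cells alone among these libraries. Its RPKM was 0, 3.35 and 3.31 in HB9 sham and 20.3, 98.9 and 74.2 in HB9 crush, and it was listed at 0 in all 6 Opn4 libraries. The 3 HB9 crush libraries lay above all others, with a spread among them of 755 to 4452 reads. Anxa3 rose in HB9 cells by 4.35 ± 0.65 on the log2 scale (limma, adjusted p = 0.00140), the largest value of any member on the log2(RPKM + 1) scale, with group means of 2.22 ± 1.92 and 64.5 ± 40.2 RPKM (SD, n = 3). The adjusted p was 0.0554 with voom on recovered reads and under the threshold in the other 21 alternatives that gave a value. The lowest crush library was replicate 1, which also had the low Cartpt; without it the change was 5.03.

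After crush Anxa3 was lower in Opn4 than in HB9 cells by -5.76 ± 0.65 on the log2 scale (limma, adjusted p = 0.000122). Against a floor of 3 reads over the Opn4 crush group, HB9 crush cells were at least 2020-fold higher, a bound for counting error alone. After sham the difference was -1.41 ± 0.65 (adjusted p = 0.204). The difference between the 2 crush effects was -4.35 ± 0.93 with an adjusted p of 0.0515 in the limma fit, outside the threshold. It was inside the threshold without HB9 crush replicate 1 (0.0328), with a rod covariate (0.0368) and with a replicate block (0.0473). In the other 18 of 21 alternatives that gave a value it stayed outside, at up to 0.483, with 0.0788 without Opn4 crush replicate 1.

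Anxa6, a large annexin with a doubled core that acts in endosome traffic and membrane repair, was the second most abundant annexin and followed class. Its RPKM in Opn4 cells was 275, 314 and 288 after sham and 338, 311 and 227 after crush. In HB9 cells it was 383, 448 and 508 after sham and 665, 560 and 599 after crush. All 6 HB9 libraries lay above all 6 Opn4 libraries, and HB9 crush lay above HB9 sham. Anxa6 was lower in Opn4 cells after crush (-1.07 ± 0.17, limma, adjusted p = 0.00111), with a call in every alternative. The lower level after sham (-0.60 ± 0.17, adjusted p = 0.0315) missed the threshold in 8 of 23 alternatives, with adjusted p of 0.0817 without Opn4 sham replicate 1, 0.0810 without Opn4 sham replicate 3, 0.0956 without HB9 sham replicate 2, 0.129 without HB9 sham replicate 3 and 0.172 with a rod covariate. In HB9 cells the log2 change after crush was 0.45 ± 0.17 (limma, adjusted p = 0.143), and 0.27 with library medians set equal. It passed with library weights (0.0168) and in none of the other 22 of 23 alternatives (up to 0.445). In Opn4 cells it was -0.02 ± 0.17, and the difference between the 2 crush effects was -0.47 ± 0.23 (adjusted p = 0.431).

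Anxa5, the phosphatidylserine-binding annexin widely used to label dying cells, was the most abundant and the steadiest member. Its RPKM in Opn4 cells was 741, 497 and 545 after sham and 629, 752 and 641 after crush. In HB9 cells it was 581, 695 and 561 after sham and 744, 656 and 669 after crush. The 4 groups overlapped, and the highest library was 1.51 times the lowest. The log2 change after crush was 0.20 ± 0.16 in Opn4 cells (95% interval -0.14 to 0.54) and 0.18 ± 0.16 in HB9 cells (-0.17 to 0.52), neither of which passed, and the latter was -0.0050 with library medians set equal. The ratio of Anxa6 to Anxa5 was 0.510 ± 0.131 (SD, n = 3) in Opn4 sham, 0.435 ± 0.0939 in Opn4 crush, 0.737 ± 0.146 in HB9 sham and 0.881 ± 0.0234 in HB9 crush.

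Anxa7, which aids membrane fusion in secretion, and Anxa11, which tethers RNA granules to lysosomes for transport in axons, passed in 0 of the 5 comparisons. Anxa7 stood at 88.8, 76.8 and 76.6 RPKM in Opn4 sham, 26.4, 84.8 and 75.6 in Opn4 crush, 69.9, 74.5 and 69.0 in HB9 sham and 99.5, 115 and 70.4 in HB9 crush. The single low value was Opn4 crush replicate 1, and the log2 change after crush in Opn4 cells was -0.53 ± 0.35 with it and -0.01 without it. In HB9 cells the log2 change of Anxa7 was 0.38 ± 0.35 (adjusted p = 0.648). Anxa11 ranged from 8.32 to 51.1 RPKM, with 51.1 in Opn4 crush replicate 2 (26.3 and 13.5 in the other Opn4 crush libraries, within the range of Opn4 sham), and the class difference was 0.65 ± 0.47 after sham and 1.01 ± 0.47 after crush (adjusted p = 0.193). An antisense gene that overlaps Anxa11, RP24-530J21.3, stood at 0.264 to 2.16 RPKM, and whether the authors' counting used strand is not given.

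Anxa4 and Anxa1 were at or near the limit of detection. Anxa4, an annexin of epithelial membranes, reached 1 RPKM in 4 libraries, with a highest value of 2.90 in HB9 crush replicate 2 and 0 in HB9 crush replicate 1, and passed in 0 comparisons. Anxa1, the glucocorticoid-induced partner of S100A11, was listed at 0 in 10 of 12 libraries, with 4.55 RPKM (215 reads) in Opn4 crush replicate 2 and 0.233 (15 reads) in HB9 sham replicate 2. By counting error alone, a group at 0 reads allows up to 3 reads over its libraries. The spread between pools can be wider, as for Anxa1 with 0, 215 and 0 reads in Opn4 crush, and this floor does not cover it.

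Between the classes, counts of members were set by Anxa2, Anxa3, Anxa6 and S100a10. After sham 2 members were lower in Opn4 cells (Anxa2 and Anxa6) and 0 higher, against 5.93% of all genes that were lower. After crush 4 were lower (with Anxa3 and S100a10) and 0 higher, against 7.6% of all genes. The median log2 difference over the 9 members was -0.06 after sham and -0.73 after crush, beside 0.01 and -0.12 over all genes. For the difference between the 2 crush effects 0 members passed in the limma fit, against 0.816% of all genes in either direction; 2 members (Anxa3 and S100a10) had an unadjusted p under 0.05, as had 12.9% of all genes. The comparisons share libraries, so their values are not independent of one another.

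**Figure D3:**
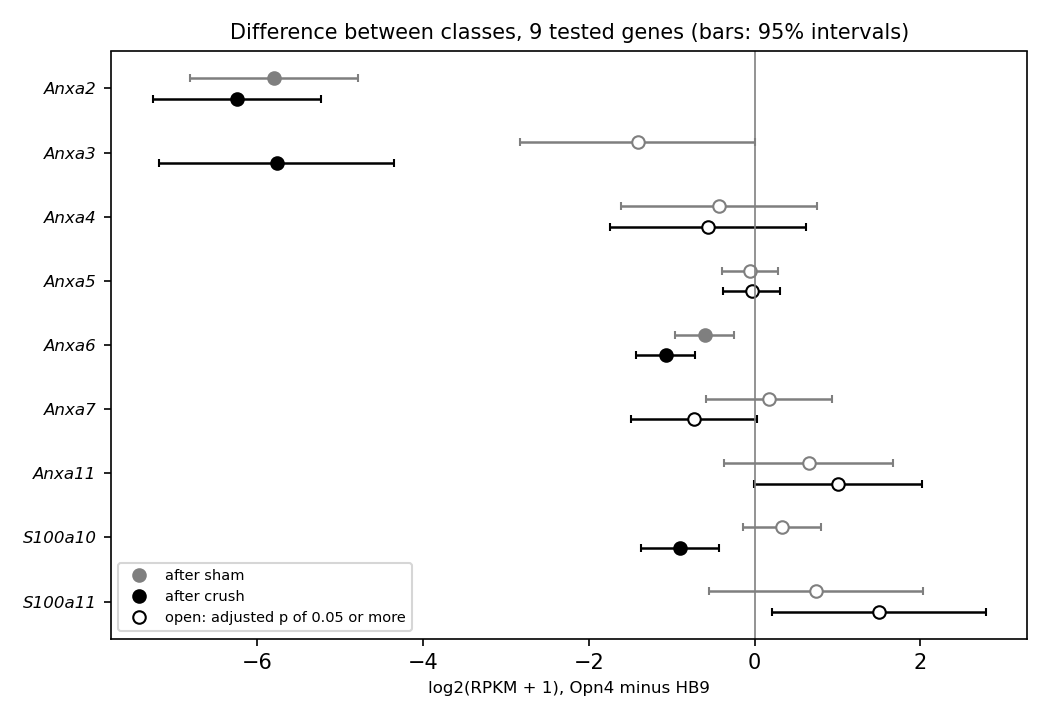
Log2 difference of RPKM + 1 between the classes (horizontal axis, Opn4 minus HB9) for the 9 tested genes after each surgery; points are limma estimates, bars are 95% intervals, and filled points have an adjusted p under 0.05. Anxa2 lies at -5.80 and -6.25, Anxa3 moves from -1.41 after sham to -5.76 after crush, and Anxa5 lies near 0 in both.

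Markers of other cells are given beside these results. Of 12 microglia and macrophage markers, C1qb and C1qc were at 0 in all 12 libraries and Tyrobp, Trem2, P2ry12 and Cx3cr1 at 0.237 RPKM at most, while Cd68, a lysosomal protein gene, was at 92.9 to 125 in HB9 crush. The 12 markers summed to 98.6 to 131 RPKM in HB9 crush against 3.41 to 14.8 in the other groups, and without Cd68 the sums were 5.42 to 5.69 in HB9 crush and 3.44 to 4.22 in HB9 sham, mostly Csf1r (4.94 to 5.26 and 3.02 to 3.93). Of 13 markers of Muller glia and astrocytes, Sox9, Aqp4 and Pax2 were at 0 in the 6 HB9 libraries and Slc1a3 and Kcnj10 at 0.0247 at most. Clu, a stress-responsive chaperone gene on that list, was at 705 to 1987 RPKM in HB9 crush and 195 to 248 in HB9 sham, and without it the other 12 summed to 91.0 to 210 and 173 to 224. Dkk3 made up much of that sum, at 38.4 to 135 RPKM in HB9 crush and 153 to 204 in HB9 sham. Vim, Rlbp1 and Apoe stood at 6.31 to 40.2, 14.7 to 31.5 and 3.51 to 6.18 RPKM in HB9 crush, with no overlap with HB9 sham (0 to 2.499, 2.30 to 3.73 and 0 to 3.05). In Opn4 cells, beside the rise of S100a11, the 13 markers summed to 533 to 626 RPKM after sham and 806 to 1034 after crush, and without Clu to 318 to 339 and 249 to 498. The 12 markers of endothelial cells and pericytes summed to 2.03 to 10.8 RPKM in every library. The 8 amacrine markers summed to 194 to 277 RPKM in Opn4 sham, 315 to 399 in Opn4 crush, 81.0 to 158 in HB9 sham and 82.4 to 304 in HB9 crush, and Slc6a9 among them stood at 0.215 to 5.57 in HB9 sham and 35.7 to 42.8 in HB9 crush. Bipolar markers summed to 22.2 to 280 over the 12 libraries. The part of glial, amacrine, Cd68 and rod transcripts in the members' changes was not tested beyond the rod covariate, under which Anxa3 (4.75) and S100a10 (1.06) kept their calls in HB9 crush, S100a11 lost its call there (2.35, adjusted p = 0.0552) and Anxa2 kept its class differences (-6.45 and -6.85).

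The rest of both families was mostly silent. Anxa8, Anxa9, Anxa10 and Anxa13 were at 2.13 RPKM at most and 0 of these 4 were tested. Of 14 other S100 genes, 5 were at 0 in every library and 4 could be tested. S100b, a glial and neuronal calcium sensor, was the most abundant of them, at 8.49 to 70.9 RPKM with groups that overlapped. S100a13, known from the export of growth factors without a signal peptide, was at 0 in the 6 Opn4 libraries and at 2.95, 9.97 and 1.64 RPKM in HB9 crush, and was lower in Opn4 cells after crush (-2.28 ± 0.54, limma, adjusted p = 0.0156). This call was lost without HB9 crush replicate 2 (0.0598), with the compared groups fitted alone (0.0512) and with a rod covariate (0.159), and S100a13 entered the fit through HB9 libraries alone. S100a6 (11.3 RPKM) and S100a4 (4.62) had their highest value in Opn4 crush replicate 1, the library with Muller glia genes and the highest Opn4 value of Anxa2.

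**Figure D4:**
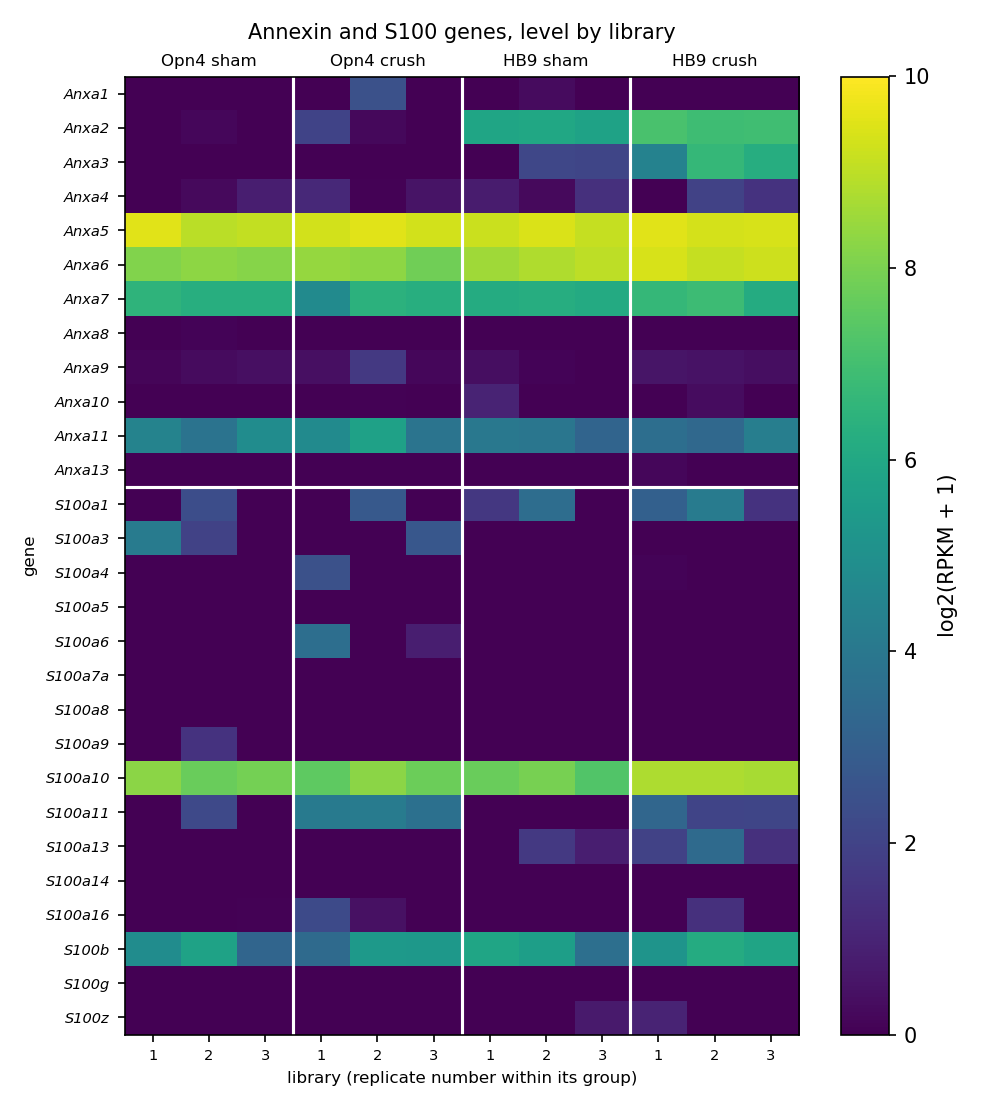
Level of 12 annexin and 16 S100 genes as log2(RPKM + 1), by colour, in 12 libraries (columns, by replicate within the 4 groups). Anxa5, Anxa6, Anxa7 and S100a10 are high in every library, Anxa2 in HB9 libraries alone, and 5 S100 genes are at 0 throughout.

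Genes on a list of partners and targets of annexins or p11 were counted next. Binding was not checked for each listed gene, Asic2 among them, so listing alone does not make a gene a known partner. Of 30 such genes measured, 19 were tested; after crush 1 was higher and 3 lower in HB9 cells, against 3.84% and 2.57% of all genes, and 0 passed in Opn4 cells, against 0.69% and 0.421%. Their median log2 change was -0.26 in HB9 cells and -0.29 in Opn4 cells, beside 0.11 and -0.02 over all genes. With so few genes these counts say little about the list, and single genes are described instead. Cd44, the hyaluronan receptor that associates with annexin A2, was at 0, 0.755 and 0 RPKM in HB9 sham and 8.52, 9.98 and 4.25 in HB9 crush (log2 change 2.76 ± 0.41, limma, adjusted p = 0.00129), and at 0.261 at most in Opn4 cells. Cd44 reached 1 RPKM in the 3 HB9 crush libraries alone and so entered the fit through the group in which it is high. Htr1d, a serotonin receptor of the type that p11 carries to the surface, was at 52.5, 50.01 and 60.3 RPKM in HB9 sham and 13.9, 11.6 and 9.15 in HB9 crush. It fell in HB9 cells by 2.15 ± 0.27 on the log2 scale (limma, adjusted p = 0.000452), while in Opn4 cells its mean was 26.6 ± 5.41 after sham and 31.8 ± 8.92 after crush.

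Htr1b, the serotonin receptor in which p11 binding was first described, fell in HB9 cells by 2.92 ± 0.53 on the log2 scale (limma, adjusted p = 0.00503), from 32.8, 12.3 and 19.7 RPKM to 3.84, 1.75 and 0.600. Asic2, an acid-sensing channel subunit, fell there by 1.56 ± 0.38 (adjusted p = 0.0286), a call lost in 7 of 23 alternatives, among them without HB9 sham replicate 2 or 3 and without HB9 crush replicate 1 or 3 (0.0556 to 0.120). Htr1b and Htr1d fell in the same HB9 libraries in which S100a10 rose. The difference between the 2 crush effects passed for Cd44 (-2.87 ± 0.58, limma, adjusted p = 0.0400, a call lost in 15 of 18 alternatives) and Htr1d (2.39 ± 0.39, adjusted p = 0.0147), 2 of the 19 genes.

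Of these 19 genes, 2 had a higher and 3 a lower level in Opn4 than in HB9 sham cells, against 5.82% and 5.93% of all genes, and after crush the counts were 4 and 3, against 5.12% and 7.6%. Ahnak2 and Ahnak, giant scaffold genes of which Ahnak is a classical ligand of the annexin A2 and p11 complex, went in opposite directions. Ahnak2 was at 49.9, 40.8 and 61.2 RPKM in HB9 sham and 1.84, 2.49 and 1.48 in Opn4 sham (-4.13 ± 0.48, limma, adjusted p = 0.000114). Ahnak was at 1.31, 0.0591 and 0 in HB9 sham and 6.83, 4.99 and 5.97 in Opn4 sham (2.35 ± 0.58, adjusted p = 0.0192). This call of Ahnak was lost with a rod covariate (1.34, adjusted p = 0.357), with voom on recovered reads (0.0719) and without Opn4 sham replicate 1 or 3 or HB9 sham replicate 2 or 3 (0.0526 to 0.0798). Sri, which codes for sorcin, a calcium sensor that binds annexin A7, was higher in Opn4 sham (86.2 ± 16.7 against 24.7 ± 1.26 RPKM, 1.75 ± 0.22, adjusted p = 0.000198). Grm5, a glutamate receptor, was lower in Opn4 sham (-2.44 ± 0.44, adjusted p = 0.00282), at 0, 1.56 and 0 RPKM beside 6.58, 6.61 and 6.09. Ahnak and Grm5 entered the fit mainly through the class in which they are high, with 1 library of the other class at 1 RPKM or more. Htr1d was lower there too (-1.02 ± 0.27, adjusted p = 0.0288), a call lost without Opn4 sham replicate 1 or 3, without any HB9 sham library (0.0583 to 0.108) and with a rod covariate (0.295).

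After crush the class difference was again negative for Ahnak2 (-3.15 ± 0.48, limma, adjusted p = 0.000947) and Cd44 (-3.03 ± 0.41, adjusted p = 0.000438). Htr1d, lower in Opn4 than in HB9 cells after sham, was higher after crush (1.37 ± 0.27, adjusted p = 0.00607), and Htr1b was higher as well (2.36 ± 0.53, adjusted p = 0.0117; 0.0532 without HB9 crush replicate 3). Grm5 was lower in Opn4 crush (-1.48 ± 0.44, adjusted p = 0.0427), but this call was lost in 14 of 23 alternatives, among them without any Opn4 crush, HB9 sham or HB9 crush library (0.0571 to 0.134).

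Genes of plasma membrane repair, in which annexins act beside the ESCRT-III complex that pinches off damaged membrane, had 0 of 20 tested genes (24 listed) past the threshold after crush in either class, where the shares over all genes would give under 1 gene of 20 in each direction. Their median log2 change was 0.46 in HB9 cells and -0.24 in Opn4 cells, beside 0.11 and -0.02 over all genes. In HB9 cells several of them had all crush libraries above all sham libraries without passing. How many of all genes did so was not counted, so this says nothing about the list. Examples, picked here after their values were seen, are the calpain gene Capn2 (0.93 ± 0.26, limma, adjusted p = 0.0547) and the endosome ATPase gene Ehd1 (1.32 ± 0.44, 0.107). Vps4b was another (0.77 ± 0.26, 0.110), while Capns1 had all crush libraries below all sham libraries (-0.54 ± 0.20, 0.139). The dysferlin gene Dysf, from the list of annexin partners and not counted here, lay higher after crush as well (2.14 ± 0.69, 0.0909). Between the classes, Syt7, a calcium sensor for lysosome fusion, was higher in Opn4 sham, at 18.1, 15.995 and 17.2 RPKM beside 6.15, 2.88 and 2.35 in HB9 sham (2.00 ± 0.38, limma, adjusted p = 0.00390; 0.0998 with a rod covariate). After crush Ehd2, an ATPase of caveolae (-1.95 ± 0.56, adjusted p = 0.0382), and Chmp6, an ESCRT-III subunit (-1.40 ± 0.37, adjusted p = 0.0242), were lower in Opn4 cells. Ehd2 reached 1 RPKM in the 6 HB9 libraries and in 1 Opn4 library, and so entered the fit mainly through HB9 cells. The call of Ehd2 was lost in 14 of 23 alternatives, among them without Opn4 crush replicate 1 or 3, without HB9 sham replicate 1 and without any HB9 crush library (0.0525 to 0.135). The call of Chmp6 was lost in 5, among them without Opn4 crush replicate 3 and without HB9 crush replicate 1 or 2 (0.0722 to 0.0993).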

How the data were processed

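RNA of 12 pools of hand-picked mouse retinal ganglion cells was measured, per the labels as amplified polyA RNA. The deposited table holds RPKM per gene and library, computed by the authors. The genome build was mm10 and the tools included edgeR 3.14.0, Bowtie and TopHat2 2.0.11, per the submitters' processing notes, which give them no roles; the counting step, its use of strand and the annotation are not given in the sources used here. RPKM of a gene rose in steps of 1 read, from which reads, gene lengths and scaling totals (15104446 to 28195798) were recovered. The reads sum to 226.7% to 244.2% of these totals, so they served for floors and for voom alone, and intervals cover counting error only.

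Values were tested as log2(RPKM + 1), for 18269 genes with at least 1 RPKM in at least 3 libraries, in 1 limma 3.58.1 model with 4 group means (eBayes with trend, two-sided, Benjamini-Hochberg over all genes of a comparison, threshold 0.05), after a test on simulated data. P-values measure the spread between pools. Members and lists were chosen with earlier results of these data known. All 10 members are named; of each list, those past the threshold are named, at most 5 per comparison, and for S100a10 and Anxa2 the 5 nearest profiles. Alternatives were other pseudocounts, filters and scalings, library weights, a rod covariate, a replicate block, fewer libraries and, added after seeing the data, voom on recovered reads. Promoter sequences are from RefSeq (GRCm38.p6). Protein sequences were not used here.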

Additional observations from a re-analysis of the deposited data

Results flagged for a closer look

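In 2 genes of the annexin and p11 partner list the crush effect differed between the classes by the interaction contrast of the limma fit. For Cd44 the difference (Opn4 minus HB9) was -2.87 ± 0.58 on the log2 scale (adjusted p = 0.0400): Cd44 had 4.25 to 9.98 RPKM in the 3 HB9 crush libraries and was at 0 in the 3 Opn4 crush libraries. It reached 1 RPKM in those 3 HB9 crush libraries alone, so it entered the fit through the group in which it is high, and the call is bound up with that. This call was lost in 15 of the 18 alternatives that gave a value (highest adjusted p 0.171), among them leaving out any Opn4 library or any HB9 sham library. For Htr1d the difference was 2.39 ± 0.39 (adjusted p = 0.0147), and it held in all alternatives (adjusted p 0.0104 to 0.0481). Htr1d fell after crush in HB9 cells, and in Opn4 cells its groups overlapped.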

How the results depend on the processing

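The number of members past the threshold depended on the settings in 4 comparisons. After crush in Opn4 cells it was 1, and 0 with a pseudocount of 0.1, with no filter, with library weights, with the compared groups fitted alone and with voom on recovered reads (0 to 1 when single libraries were left out). In HB9 cells it was 3, and 5 with library weights, 4 with the compared groups fitted alone and without Opn4 crush replicate 1, and 2 with no filter, a filter of 6 libraries, a rod covariate or any 1 of the 6 HB9 libraries left out. For the difference of crush effects it was 0, and 1 with a replicate block and with a rod covariate (0 to 1 without single libraries). For the class difference after sham it was 2, and 1 with no filter, a replicate block, quantile normalization and a rod covariate (1 to 2 without single libraries). After crush it stayed within 1.5 times of 4 in each setting run.

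Of 1126 pairs of a named value and an alternative, 1004 kept direction and side of the threshold, 102 lost the call, 10 gained it and 10 changed sign. The 1004 include values that did not pass in either fit. Leaving out a library of a group outside a comparison does not alter its estimate, so the 1004 are no measure of how firm the calls are. The sign changes were all of values that had not passed: Anxa2 in the difference of crush effects (0.54 with pseudocount 0.1, 1.90 with voom), S100a11 in the same (-0.051 and -0.35), Anxa5 after crush in HB9 cells (-0.0050 with median centring), Anxa6 after crush in Opn4 cells (0.030 with quantile normalization, -0.13 to 0.15 without single libraries) and S100a10 there (-0.33 to 0.027 without single libraries). The cause was not tested.

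Samples with the same replicate number did not deviate together (correlations -0.022 to 0.081), so the numbers are not taken as pairs. With the replicate block Anxa3 passed in the difference of crush effects (-4.35, adjusted p = 0.0473), and Anxa6 (class difference after sham, 0.0536), Cd44 (difference of crush effects, 0.0711), Grm5 and Ehd2 (class difference after crush, 0.0540 and 0.0552) lost their calls. S100a11, Anxa1 and Anxa4 rest on few reads, at most 155, 215 and 372 in a library. The part of depth or amplification in this was not tested.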
